A study of Mus musculus with 6 samples.

Results

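Translation initiation factors were followed in primary bone marrow-derived macrophages after treatment with a peptide against the transcriptional repressor Bcl6. The members were all genes whose symbol on the array begins with Eif, which are the subunits of the initiation factors, the eIF2 kinases Eif2ak1 to Eif2ak4 and the Eif4ebp repressors of cap-dependent translation. The rule found 51 genes with 96 probes, among 19057 genes with a named probe. They fell into an eIF2 group of 15 genes, an eIF3 group of 12, an eIF4 group of 14 and 10 others. No probe was named here for the alpha subunit of eIF2, the scaffold eIF4G1, eIF1 itself or the eIF3 subunit eIF3g, and none of these was analysed.

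Initiation factors bring the ribosome, the initiator tRNA and the mRNA together. eIF2 carries the initiator tRNA to the small ribosomal subunit and is recharged with GTP by eIF2B, and 4 kinases that respond to different stresses phosphorylate its alpha subunit and so block the recharging. eIF3 is a large scaffold on the small subunit, and the eIF4 proteins bind the cap of the mRNA and unwind its leader, a step that the 4E-binding proteins hold back when they are not phosphorylated by mTORC1. eIF1, eIF1A, eIF5 and eIF5B select the start codon and join the large subunit, and eIF6 keeps the large subunit apart until it is mature. In macrophages these factors govern how fast induced messages are turned into cytokines and other proteins.

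The cells came from wild-type c57Bl6/J males of 10 weeks. One group received a control peptide at 5 µM and the other RI-BPI at 5 µM, both for 12 h, with 3 Illumina bead arrays per group. RI-BPI is a retro-inverso peptide designed to keep Bcl6 from binding the corepressors SMRT and NCoR. The labels call the arrays of a group technical replicates and do not say how many cultures or animals stand behind them, so every p-value measures the spread between arrays alone.

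Median bead intensities lay between 45.8 and 47.4 on the 6 arrays. The number of detected probes was 13866 to 14357 with control peptide and 12931 to 13843 with RI-BPI, and of the 96 Eif probes 66 to 67 passed detection on a control array and 65 to 72 on an RI-BPI array. All 10 macrophage markers with a probe were detected, and 5 of them fell and 1 rose with RI-BPI, by the calls defined below. The share called, 60%, was close to the 61.3% of all measured genes. Falls made up 50% of the markers against 30.6% of all genes, and rises 10% against 30.7%. The summed intensity of the macrophage markers above background was 67199 to 75086 with control and 56408 to 67639 with RI-BPI. Of the 28 markers of neutrophils, lymphocytes, fibroblasts and erythroid or mast cells with a probe, 2 passed the detection filter. The summed intensity of the neutrophil list was 349 to 368 with control and 424 to 459 with RI-BPI, and that of the lymphocyte list 31.4 to 43.0 and 19.9 to 26.4. None of the 8 fibroblast and 5 erythroid or mast cell markers was detected on any array. The part of these differences in the results on Eif genes was not tested.

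Promoter windows are shown first for 5 genes of different behaviour, namely Eif5 and Eif3d, the 2 largest increases with a window in the RefSeq promoter table, Eif2d and Eif2ak2, the 2 largest decreases with one, and Eif4e, the gene of the cap-binding protein. Each run is the 250 bases before the annotated start (RefSeq, build GRCm38.p6), read 5′ to 3′ on the gene's strand. Capitals mark every match on either strand to CACGTG, the E-box bound by MYC and MAX, to TGATGNAA, the core of the element bound by ATF4, to TTCNNNGAA, a palindrome of the STAT and Bcl6 type, and to GGGCGG, the GC box of Sp1. None of the matches overlapped in these windows. The locations are chr12:111537851-111538100, plus strand for Eif5, chr15:77970825-77971074, minus strand for Eif3d, chr1:131152957-131153206, plus strand for Eif2d, chr17:78882573-78882822, minus strand for Eif2ak2 and chr3:138527018-138527267, plus strand for Eif4e, the more downstream of 2 listed windows, of which the other held no match.
Eif5: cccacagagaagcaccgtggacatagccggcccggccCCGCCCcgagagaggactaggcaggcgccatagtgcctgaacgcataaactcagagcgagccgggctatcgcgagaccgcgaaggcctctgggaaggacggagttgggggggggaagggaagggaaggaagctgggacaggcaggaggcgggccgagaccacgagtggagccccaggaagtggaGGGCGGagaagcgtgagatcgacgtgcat
Eif3d: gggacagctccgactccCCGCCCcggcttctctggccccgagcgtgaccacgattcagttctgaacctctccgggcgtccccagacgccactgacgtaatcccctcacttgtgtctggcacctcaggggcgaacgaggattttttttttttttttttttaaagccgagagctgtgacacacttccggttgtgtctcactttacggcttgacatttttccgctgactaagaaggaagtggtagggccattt
Eif2d: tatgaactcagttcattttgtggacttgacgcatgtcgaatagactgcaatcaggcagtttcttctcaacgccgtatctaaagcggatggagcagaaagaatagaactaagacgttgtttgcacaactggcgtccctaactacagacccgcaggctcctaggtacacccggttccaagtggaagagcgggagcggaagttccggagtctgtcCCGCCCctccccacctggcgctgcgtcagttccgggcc
Eif2ak2: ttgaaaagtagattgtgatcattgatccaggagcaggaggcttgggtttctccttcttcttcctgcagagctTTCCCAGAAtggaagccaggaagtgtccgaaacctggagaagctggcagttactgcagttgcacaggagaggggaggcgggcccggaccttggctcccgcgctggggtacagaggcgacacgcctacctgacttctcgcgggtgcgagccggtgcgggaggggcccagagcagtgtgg
Eif4e: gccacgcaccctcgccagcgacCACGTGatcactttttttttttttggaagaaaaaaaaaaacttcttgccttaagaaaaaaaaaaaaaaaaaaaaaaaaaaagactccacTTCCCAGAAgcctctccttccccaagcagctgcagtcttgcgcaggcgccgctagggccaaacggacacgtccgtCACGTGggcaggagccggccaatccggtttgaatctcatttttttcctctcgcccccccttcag

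The Eif4e window held 2 E-boxes and 1 palindrome, and that of Eif2ak2 held 1 palindrome. The windows of Eif5, Eif3d and Eif2d held 2, 1 and 1 GC boxes and none of the other letters. Of the 51 members 39 had a window in the table. An E-box was found in 8 of the 39 (20.5%), against 6.86% of all 27025 genes with a window. It was found in 2 of 13 members that rose, 3 of 6 that fell and 2 of 13 that were not called, as the calls are given below. GC boxes stood in 29 of 39 members (74.4%) against 35.4% of genes. The palindrome stood in 4 (10.3%) against 8.13%, and the ATF4 core in 1, Eif2s3x (2.56%), against 3.91%. These are matches of letters only and say nothing of binding. The 27025 genes take in many that were not measured here. The shares among measured genes were not counted, and no enrichment was tested.

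Of the 51 genes, 40 were measured, that is, had a probe detected at p under 0.01 on at least 3 of the 6 arrays. With RI-BPI 17 of the 40 rose and 8 fell, and 15 were not called at an adjusted p under 0.05 in a limma fit over all 8205 measured genes. The share called was 62.5%, against 61.3% of all measured genes, 30.7% higher and 30.6% lower. A lower level can reflect less RNA per cell or a different makeup of the culture, which cannot be told apart in bulk RNA. The rises made up 42.5% of the Eif genes and the falls 20%. Changes of at least 1.5-fold among the calls numbered 8 up and 2 down of the 40, against 14.8% and 15.2% of all genes, or 29.9% in either direction. The median log2 change, RI-BPI minus control, was 0.22 over the Eif genes and 0.008 over all genes. With median centring in place of quantile normalization 12 Eif genes rose and 8 fell, while all genes split into 1988 rises and 2807 falls. The Eif median was 0.14 with the mean of all kept probes of a gene and 0.13 over the 51 genes without the detection filter. Eif4ebp1, Eif6, Eif5, Eif3d, Eif1a, Eif4a3, Eif1ad and Eif2s2 were the 8 that rose by that much, and Eif4e3 and Eif2d the 2 that fell. Eif2s2 and Eif1ad, at 1.51-fold and 1.52-fold, lay just past the limit.

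**Figure D1:**
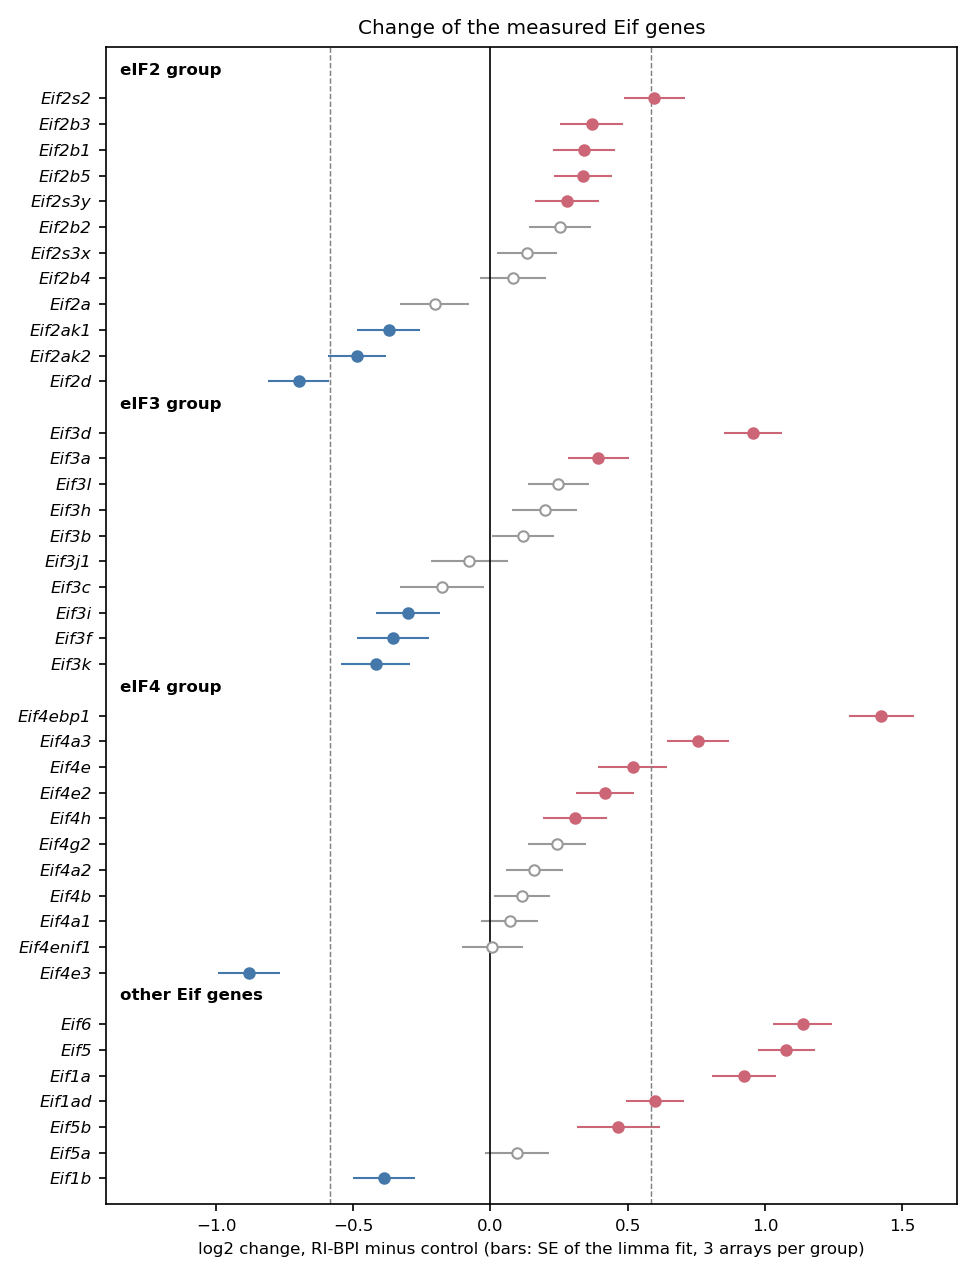
Log2 change (RI-BPI minus control, horizontal axis) of the 40 measured Eif genes, by group, with the standard error of the fit over 3 arrays per group. Red points rose and blue points fell at an adjusted p under 0.05, open points were not called, and dashed lines mark 1.5-fold. The other Eif genes and the eIF4 group lie mostly to the right of 0, whereas the 10 eIF3 genes spread from -0.42 to 0.96.

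Called genes made up 66.7% of the measured eIF2 group, 50% of eIF3, 54.5% of eIF4 and 85.7% of the others. Over all measured genes the share was 61.3%, with 30.7% higher and 30.6% lower. The eIF2 group held 12 measured genes, 5 up and 3 down, and its median log2 change was 0.19. The eIF3 group held 10, of which 2 rose while 3 fell, around a median of 0.02. Among 11 eIF4 genes there were 5 increases and 1 decrease (median 0.24). Among the 7 remaining genes there were also 5 increases and 1 decrease (median 0.60). The difference between the groups was not tested. The order of the eIF2, eIF3 and eIF4 medians turned with the probe rule. With the mean of all kept probes the medians were 0.11, 0.13 and 0.12, and the eIF3 group then had 3 rises and 2 falls and the eIF4 group 5 and 2. Without the filter the eIF3, eIF4 and other medians were 0.12, 0.14 and 0.29, and over probes detected on all 6 arrays the eIF3 median was 0.12. With median centring the eIF2 group had 2 rises and 3 falls, and the median of the eIF3 group was -0.05. That median was also below 0 when control replicate 2 (-0.03), RI-BPI replicate 1 (-0.05) or RI-BPI replicate 2 (-0.03) was left out. Without control replicate 1 the eIF2 group had 3 rises and 2 falls, when RI-BPI replicate 2 was dropped it had 3 and 4, and the eIF3 group had 2 rises and 1 fall without control replicate 2 and also without control replicate 3.

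**Figure D2:**
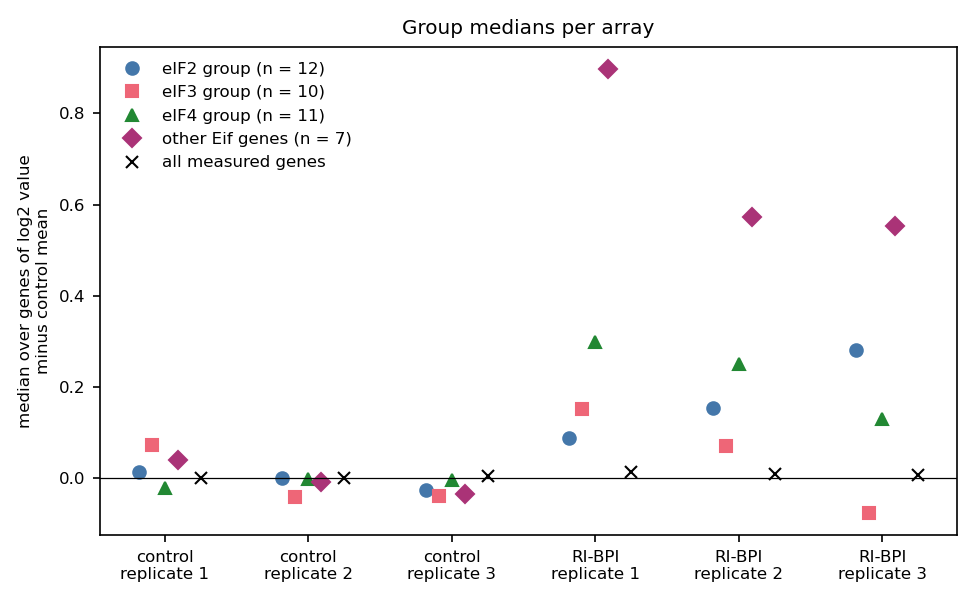
Median over the genes of each group of the log2 value minus the control mean (vertical axis), for each of the 6 arrays, with all measured genes as crosses. The other Eif genes stand at 0.55 to 0.90 on the RI-BPI arrays and the eIF4 group at 0.13 to 0.30, while the eIF3 group runs from -0.08 to 0.15.

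The largest change of the family was in Eif4ebp1, the gene of 4E-BP1, the repressor that binds eIF4E and keeps it from eIF4G. Its deposited bead intensities were 779, 582 and 629.6 on the control arrays and 1765, 1665 and 1657 on the RI-BPI arrays. Every RI-BPI array was above every control array by more than the range within either group. The log2 change was 1.42 ± 0.12 (SE, n = 3 arrays per group), or 2.68-fold, with an adjusted p of 5.45e-09. The other repressor genes of this kind gave no measurement of change. Eif4ebp2 was read at 53.5, 54.2 and 53.7 with control and 56.3, 50.8 and 54.1 with RI-BPI, and was detected on 1 of 6 arrays. Eif4ebp3 read 41.7, 44.2 and 39.4 against 41.7, 47.7 and 46.9 and was detected on none. Eif4enif1, which encodes the eIF4E transporter 4E-T, was detected on every array and had a log2 change of 0.01 ± 0.11 (adjusted p = 0.962), with -0.07 at a second probe.

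The genes of the cap-binding proteins moved in different directions. Eif4e itself was dim, at 52.7, 56.9 and 47.1 with control and 59.0, 60.9 and 65.1 with RI-BPI. It was detected on 1 control array and on all 3 RI-BPI arrays, so it passed the filter through the group in which it was higher. The groups did not overlap, and the log2 change of 0.52 ± 0.13 (adjusted p = 0.00139) was 0.28 without background correction and 0.24 with an offset of 50, with the call kept. Eif4e2, which encodes the homologue 4EHP that binds caps without eIF4G, rose by 0.42 ± 0.11 (adjusted p = 0.00219). A second probe of Eif4e2 gave 0.42 and another -0.05. Eif4e3, a cap-binding relative that also associates with eIF4G, was read at 293, 306 and 263 with control and 179.9, 143 and 162 with RI-BPI. No RI-BPI array reached the lowest control array. Eif4e3 fell by 0.88 ± 0.11 (1.84-fold lower, adjusted p = 1.58e-06), and its 2 further detected probes gave -1.18 and -0.53. Eif4e1b, a relative known from oocytes and not counted with the eIF4 group, was not detected on any array at any of 3 probes.

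Among the helicases and scaffolds of the eIF4 group Eif4a3 changed most. Eif4a3 encodes the DEAD-box protein of the exon junction complex, which marks spliced mRNA rather than serving initiation itself. Its intensities were 701, 836 and 613 with control and 1195, 1207 and 1112 with RI-BPI. The groups were well apart, and the log2 change was 0.76 ± 0.11 (1.69-fold, adjusted p = 1.08e-05). Eif4h, a cofactor of the helicase, rose by 0.31 ± 0.12 (adjusted p = 0.0286). Its deposited intensities ran from 4263 to 4325 with control and from 3988 to 5782 with RI-BPI, so that 1 RI-BPI array lay below all controls. After normalization the groups of Eif4h did not overlap. Dropping RI-BPI replicate 2 left a change of 0.20 (adjusted p = 0.175), and the call was also lost when control replicate 1 (0.0787) or 2 (0.0823) was dropped. Median centring (0.205) and leaving out the detection filter (0.0742) ended it too. Eif4a1, the main initiation helicase, had a log2 change of 0.07 ± 0.10 and Eif4b, its other cofactor, one of 0.11 ± 0.10, neither called, and a second probe of Eif4a1 gave 0.17. Eif4a1 and Eif4a2 are closely related in sequence, so their signals may be shared. Eif4g3, a scaffold that joins eIF4E to the helicase, was not detected on any array.

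For Eif4a2 and Eif4g2 the probes disagreed. Eif4a2, the helicase paralog linked to microRNA repression, gave a log2 change of 0.16 ± 0.10 (adjusted p = 0.191) at the brightest probe, and -0.98 and -0.41 at 2 dimmer ones. Eif4g2, which encodes the scaffold DAP5 that cannot bind eIF4E, gave 0.24 ± 0.11 (adjusted p = 0.0545) at the brightest probe, 0.45 at the dimmest and -1.10 at another. That last probe of Eif4g2 fell from a mean of 139.9 with control to 75.9 with RI-BPI. The brightest probe of Eif4g2 was called in 6 alternatives (adjusted p between 0.0215 and 0.0495), but the mean of its probes was -0.14. No direction is therefore given for either gene, and the transcript forms that the probes read were not analysed here.

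**Figure D3:**
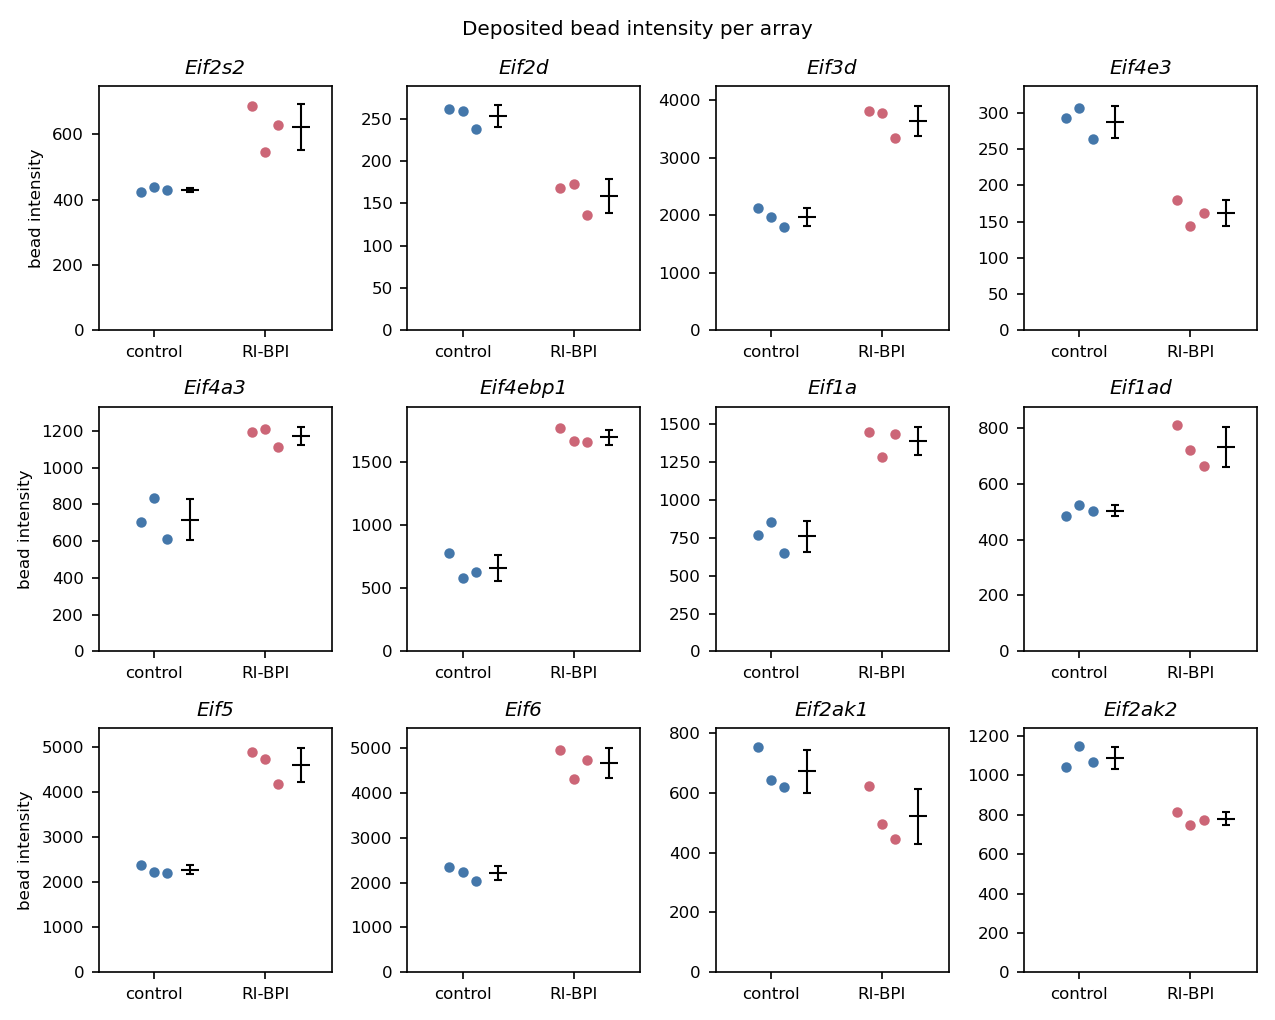
Deposited bead intensity (vertical axes, each from 0) on the 3 control arrays (blue) and the 3 RI-BPI arrays (red) for the 10 Eif genes called with at least 1.5-fold change and for the kinases Eif2ak1 and Eif2ak2. Black bars are the mean and SD of 3 arrays. The groups overlap for Eif2ak1, at 619.6 and 623, and for none of the other 11 genes. The 10 genes were picked by their calls, so their separation follows largely from that choice. The share of all genes without overlap was not counted.

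The other Eif genes were the group with the highest median change. They held factors of start codon selection and subunit joining, and also Eif6, Eif1ad and the Eif5a genes. Eif6, which encodes the anti-association factor of the large subunit, was read at 2356, 2242 and 2034 with control and at 4938, 4299.6 and 4733 with RI-BPI. The lowest RI-BPI array stood well above the highest control array. Its log2 change was 1.14 ± 0.11 (2.20-fold, adjusted p = 2.87e-08), and a dimmer probe gave 0.82. Eif5, the gene of the GTPase activator that triggers GTP hydrolysis by eIF2 at the start codon, was read at 2389.8, 2229.9 and 2210.5 with control and 4895, 4732 and 4188 with RI-BPI. Here too the groups were far apart. Eif5 rose by 1.08 ± 0.10 (2.11-fold, adjusted p = 3.38e-08), with 0.90 and 0.48 at its other probes.

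Eif1a, a gene of eIF1A, which binds the decoding site of the small subunit, was read at 772, 857 and 648 with control and 1446, 1282 and 1437 with RI-BPI. All RI-BPI arrays exceeded the control arrays, and the log2 change was 0.93 ± 0.12 (1.90-fold, adjusted p = 1.24e-06). Eif1ax, the X-linked copy, was not detected. Eif1a and Eif1ax encode near-identical proteins, and whether the probe of Eif1a reads only 1 of them is not given here. Eif1ad, which encodes an eIF1A-domain protein of small subunit maturation, was read at 483, 523 and 500.4 with control and 808, 720.5 and 665 with RI-BPI. It rose by 0.60 ± 0.11 (adjusted p = 6.54e-05), without overlap between groups, and its other probes gave 0.33 and 0.97.

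Eif1b, whose product resembles the start codon fidelity factor eIF1, fell by 0.39 ± 0.11 (adjusted p = 0.00628), from 407 to 510.0 with control and from 294 to 401 with RI-BPI. Eif5b, the gene of the GTPase of subunit joining, was dim. It was read at 61.5, 59.6 and 58.4 with control and at 87.0, 62.0 and 63.1 with RI-BPI, so that 1 array carried most of the difference. Its log2 change of 0.47 ± 0.15 (adjusted p = 0.0116) became 0.23 without RI-BPI replicate 1 (adjusted p = 0.0989), 0.36 with median centring (0.0742) and 0.25 with an offset of 50 (0.0519). Without the detection filter its adjusted p was 0.123. The probes of Eif5a, the hypusinated factor that helps the ribosome through difficult stretches and releases peptides, disagreed. The brightest gave 0.10 ± 0.12 (adjusted p = 0.496) and both others fell, at -0.62 and -0.53. The paralog Eif5a2 was not detected.

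In the eIF2 group the 5 rises were in genes of the complex and of its exchange factor, and the 3 falls were in 2 kinases and Eif2d. Eif2s2, the beta subunit, was read at 425, 437 and 429.7 with control and 688, 547 and 629 with RI-BPI. The groups did not overlap, and Eif2s2 rose by 0.60 ± 0.11 (1.51-fold, adjusted p = 0.000117), with 0.26 at a second probe. Eif2s3y, the Y-linked gamma subunit, rose by 0.28 ± 0.12 (adjusted p = 0.0424), and the X-linked Eif2s3x had a change of 0.13 ± 0.11 that did not pass (adjusted p = 0.309). The gamma genes are closely related in sequence, so their signals may be shared. The call on Eif2s3y was lost when RI-BPI replicate 1 (adjusted p = 0.19) or 2 (0.0532), or control replicate 1 (0.0781) or 3 (0.174), was dropped. Median centring (0.199) and leaving out the detection filter (0.0873) ended it too. The pseudogene Eif2s3x-ps1 was not detected.

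All 5 subunit genes of eIF2B, the exchange factor, had a positive log2 change, and 3 of the 5 were called, where 4151 of all 8205 measured genes had a positive change and 30.7% were called higher. Eif2b3 rose by 0.37 ± 0.11 (adjusted p = 0.00914), Eif2b1 by 0.34 ± 0.11 (0.0133) and Eif2b5, the catalytic subunit, by 0.34 ± 0.11 (0.0102). The intensities of Eif2b5 were 692, 746 and 762 with control and 950.1, 906 and 858 with RI-BPI, without overlap. Eif2b2 was at 0.25 ± 0.11 (adjusted p = 0.0553) and Eif2b4 at 0.08 ± 0.12 (0.578). Eif2b2 was called in 6 alternatives, with adjusted p between 0.0318 and 0.0488, and Eif2b4 was at -0.0056 when RI-BPI replicate 3 was dropped. These calls lie near the threshold. That of Eif2b5 was lost without control replicate 1 (adjusted p = 0.0588), and that of Eif2b3 with median centring (0.0877). Eif2b1 lost its call under median centring (0.0518) and when control replicate 1 (0.0517) or RI-BPI replicate 2 (0.059) was dropped. With the mean of its kept probes the change of Eif2b1 was only 0.09 (adjusted p = 0.387). Its second probe gave -0.17. Other probes of Eif2b5 gave 0.08 and 0.28.

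Both measured eIF2 kinases fell. Eif2ak2 encodes PKR, the kinase that senses double-stranded RNA and is itself induced by interferon. Its intensities were 1042, 1149.5 and 1069 with control and 813, 747 and 775 with RI-BPI. The RI-BPI arrays were all below the control arrays, and Eif2ak2 fell by 0.49 ± 0.11 (adjusted p = 0.00056). Eif2ak1, the gene of the heme-regulated kinase HRI, was read at 753, 642 and 619.6 with control and 623, 496 and 444 with RI-BPI. The deposited intensities of Eif2ak1 overlapped at 1 array, and after normalization they did not. Eif2ak1 fell by 0.37 ± 0.12 (adjusted p = 0.00937), and by 0.30 without control replicate 1 (adjusted p = 0.0608).

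The other kinases lay near background, where no change could be measured. Eif2ak3, the gene of PERK, which senses unfolded protein in the endoplasmic reticulum, was read at 49.1, 52.1 and 47.7 with control and 54.0, 53.0 and 54.4 with RI-BPI. None of these arrays passed detection. Eif2ak4, the gene of the amino acid sensor GCN2, was read at 49.95, 50.4 and 46.7 with control and 60.5, 53.5 and 55.6 with RI-BPI, and was detected on 1 array, of RI-BPI. At the probe signals obtained, lower levels than this cannot be told from background, and no level is stated for either kinase.

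Eif2d and Eif2a encode factors that deliver initiator tRNA without eIF2. Eif2d was read at 262, 259 and 238 with control and 168, 173 and 136 with RI-BPI. The groups were apart, and Eif2d fell by 0.70 ± 0.11 (1.62-fold lower, adjusted p = 2.17e-05), with -0.62 at a second detected probe. Eif2a had a change of -0.20 ± 0.12 (adjusted p = 0.167), and was called without RI-BPI replicate 2 (-0.31, adjusted p = 0.0473).

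The measured eIF3 subunits did not move together. Eif3d, whose human product can itself bind the caps of selected mRNAs, was read at 2116, 1975 and 1800.1 with control and at 3799.6, 3777 and 3343 with RI-BPI. All RI-BPI arrays were far above the control arrays. Eif3d rose by 0.96 ± 0.10 (1.94-fold, adjusted p = 1.99e-07). Eif3a, the large scaffold subunit, was read at 606, 588 and 464 with control and 742, 692 and 667 with RI-BPI and rose by 0.39 ± 0.11 (adjusted p = 0.00484). The scaffold partner Eif3b had a change of 0.12 ± 0.11 and Eif3l one of 0.25 ± 0.11 (adjusted p = 0.0597), neither called. A second probe of Eif3l gave -0.06. Eif3l was called without background correction (adjusted p = 0.0288), with an offset of 50 (0.0272), in the authors' normalized values (0.0304) and without RI-BPI replicate 2 (0.0301).

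The 3 eIF3 genes that fell did so by less than 1.5-fold. Eif3f, a subunit of the MPN-domain pair, was read at 4645, 4854 and 5032 with control and 4846, 3469 and 2807 with RI-BPI, so that RI-BPI replicate 1 lay among the controls. Eif3f fell by 0.35 ± 0.13 (adjusted p = 0.0259), and its second probe gave -0.45. Dropping RI-BPI replicate 3 left a change of -0.22 (adjusted p = 0.139), and the call was also lost when RI-BPI replicate 2 (0.0721) or control replicate 2 (0.0605) or 3 (0.106) was dropped. Leaving out the detection filter ended it too (0.134). Eif3i, a WD-repeat subunit, was read at 4416, 4033 and 3865 with control and 3563, 2731 and 3182 with RI-BPI, without overlap. Its log2 change of -0.30 ± 0.12 (adjusted p = 0.0308) was -0.19 without RI-BPI replicate 2 (adjusted p = 0.179). Dropping any 1 control array also ended the call (0.113, 0.0508 and 0.0694 for replicates 1, 2 and 3), as did leaving out the detection filter (0.0725). Other probes of Eif3i gave -0.59 and -0.21.

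Eif3k and Eif3c had probes of opposite sign. Eif3k, which encodes a small peripheral subunit, fell by 0.42 ± 0.13 (adjusted p = 0.00732) at its bright probe. A dim probe of Eif3k, undetected in control and kept through the RI-BPI arrays alone, rose at least 1.22-fold. Eif3c, a core subunit, was read at 402, 388 and 349.8 with control and 442, 349 and 229.6 with RI-BPI at its bright probe, a wide range with RI-BPI. The change there was -0.18 ± 0.15 (adjusted p = 0.331), or -0.36 without RI-BPI replicate 1 (adjusted p = 0.0404). A dimmer probe of Eif3c rose by 1.07, from a mean of 141 to 249.8. Eif3h (0.20 ± 0.12) and the loosely bound subunit Eif3j1 (-0.08 ± 0.14) were not called, and Eif3e and Eif3m were not detected on any array.

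**Figure D4:**
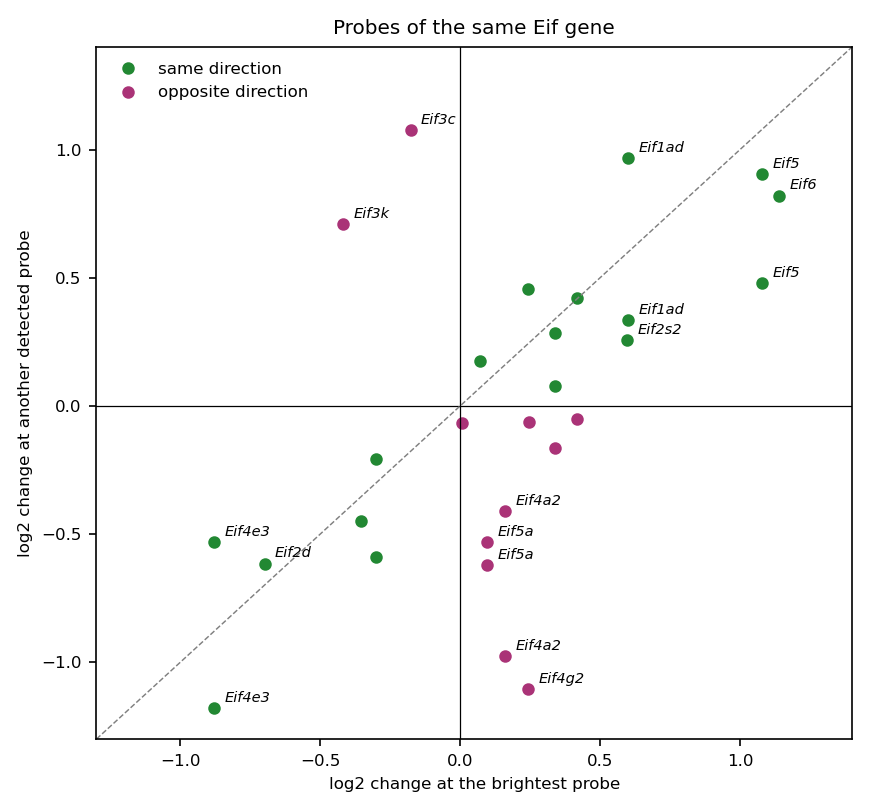
Log2 change (RI-BPI minus control) at the brightest probe of a gene (horizontal axis) against that at each other detected probe of the same gene (vertical axis), for 28 pairs in 19 Eif genes. In 17 pairs both changes had the same sign (green) and in 11 the signs were opposite (purple), the latter led by Eif3c, Eif4g2, Eif4a2, Eif3k and Eif5a. The dashed line marks equal changes.

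Probes of the same gene were compared as a second reading of the same RNA. Among the 12 called genes with a further detected probe, 15 of 18 pairs had the same sign. The 3 exceptions were Eif2b1, Eif3k and 1 probe of Eif4e2. For the 10 genes called at 1.5-fold or more, no pair differed in sign, but Eif4ebp1, Eif4a3, Eif3d and Eif1a had 1 detected probe only. The array-to-array spread (SD) of the Eif genes had a median of 9.17% of the intensity. The standard error of the beads within an array had a median of 7.40%. The ratio of spread to bead error, taken per gene, had a median of 1.29.

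Other translation genes were taken from 6 lists of factors that act with initiation. Of 63 measured genes 23 rose and 8 fell, leaving 32 without a call. Their median log2 change was 0.15. Called genes made up 49.2% of these, 36.5% up and 12.7% down, against the shares of all genes given above. The largest change was in the list of phosphatase subunits acting on eIF2 alpha and of regulators of its kinases. Ppp1r15a, which encodes the stress-induced subunit GADD34 that directs a phosphatase to eIF2 alpha, rose by 3.25 ± 0.12 (9.51-fold, adjusted p = 1.98e-14), and Impact, whose product restrains GCN2, rose by 0.99 ± 0.11 (1.99-fold). Prkra, which encodes the PKR activator PACT, fell by 0.76 ± 0.11, and Dnajc3, which encodes the inhibitor P58IPK, by 0.27 ± 0.11. The constitutive phosphatase subunit Ppp1r15b, at 0.12 ± 0.12, was among the 5 of 9 measured members of that list that were not called. The share called in that list was 44.4%.

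In the list of cap-binding partners and mTORC1 genes, 6 of 17 measured members rose and 2 fell. The share called was 47.1%, below the 61.3% of all measured genes. Akt1s1, which encodes the mTORC1 inhibitor PRAS40, rose by 0.90 ± 0.11, Tsc1, a brake upstream of mTORC1, by 0.80 ± 0.11 and the nuclear cap-binding gene Ncbp1 by 0.78 ± 0.11. Deptor, another inhibitor of mTOR, was undetected with RI-BPI and fell at least 1.22-fold. It passed the filter only through the control group, in which it was higher. Rptor, the raptor subunit, fell by 0.28 ± 0.11 at the brightest probe with 0.13 at another. Mtor itself was at -0.16 ± 0.11 and was not called, with 0.28 at another probe. Of 6 poly(A)-binding genes 3 were called (50%), and all 3 rose. They were Paip2, an inhibitor of the poly(A)-binding protein (0.56 ± 0.12), Pabpc4 (0.50 ± 0.14, with 0.65 at another probe) and the nuclear Pabpn1 (0.40 ± 0.11). Of 8 genes of recycling, reinitiation and scanning 4 rose and none fell, so that 50% were called. Denr, a reinitiation factor, rose by 0.69 ± 0.14, with 0.37 at another probe, the recycling factor Abce1 by 0.53 ± 0.11 and the eIF5 mimic Bzw2 by 0.43 ± 0.11.

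Elongation and termination factors split, with 6 of 14 measured genes higher and 3 lower. The share called was 64.3%, near the 61.3% of all measured genes. Eef2, the translocase of the ribosome, had the largest fall of the 6 lists, 1.33 ± 0.11 on the log2 scale (2.51-fold lower, adjusted p = 5.39e-09), with -1.38 at a further probe and a like value at the last. The release factor paralog Gspt2 fell by 0.57 ± 0.12 and the exchange factor subunit Eef1b2 by 0.32 ± 0.11, with -0.46 and -0.65 at its other probes. The release factor Etf1 rose by 0.68 ± 0.11, and Dhps, the enzyme that begins hypusine formation on eIF5A, rose by 0.48 ± 0.13. The synthetase complex member Eef1e1 rose by 0.41 ± 0.11. Of 9 mitochondrial translation factors 2 rose and 1 fell, so that 33.3% were called. Mtif3, mitochondrial initiation factor 3, rose by 0.55 ± 0.11 at its brightest probe but had -0.57 at another, so its direction is not settled. Mtrf1l rose by 0.37 ± 0.12 and Gfm1 fell by 0.36 ± 0.12.

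**Figure D5:**
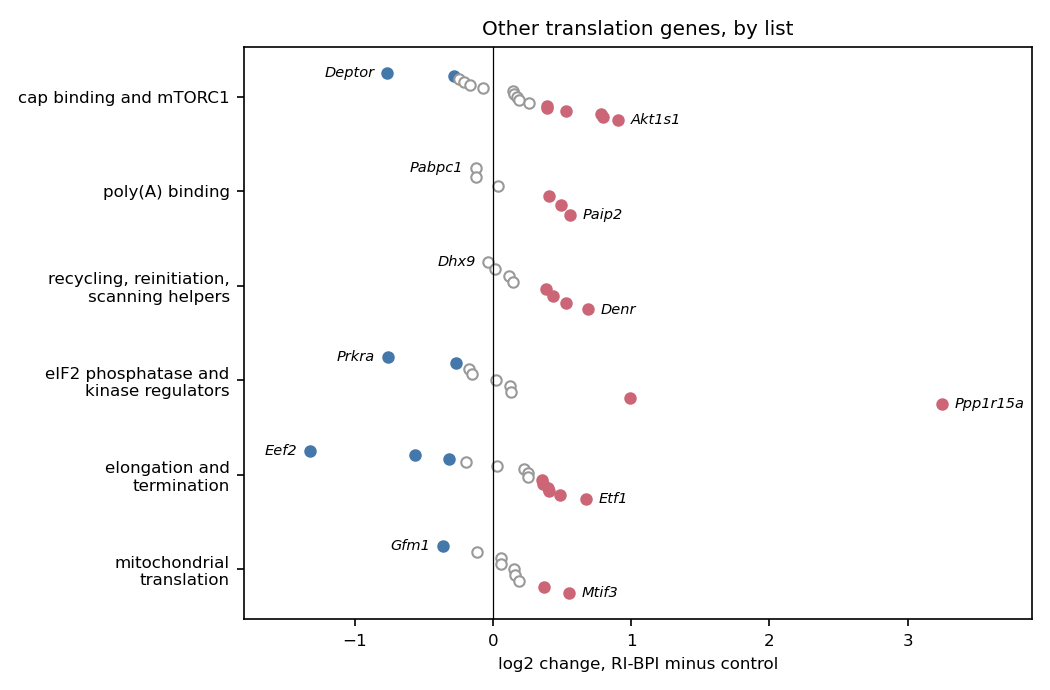
Log2 change (RI-BPI minus control, horizontal axis) of the 63 measured translation genes in 6 lists (vertical axis). Red points rose and blue points fell at an adjusted p under 0.05, and open points were not called. The lowest and highest gene of each list are named, with Ppp1r15a at 3.25 and Eef2 at -1.33 the extremes.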

How the data were processed

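The deposited table holds the mean bead intensity, the standard error of the beads and the count of beads for 45281 probes on 6 arrays, with a detection p-value, and per the file headers these intensity values are not normalized. Per the file headers the bead signal error and the bead count are the authors' own output, and the bead count had a median of 45 on every array. The submitters' processing notes name GenomeStudio, without its role or version. The authors also deposited normalized intensity values, made by an unstated method, which served as an alternative. Of the probes 34885 carried 1 gene symbol in the platform annotation, 18 several and 10378 none, and no symbol changed through RefSeq identifiers.

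Intensities were background-corrected with normexp in limma 3.58.1 (R 4.3.3), with background inferred from detection p-values and offset 16, quantile-normalized and put on the log2 scale. Deposited intensities are printed per array, and changes and tests use the normalized log2 values. The offset pulls changes of dim probes towards 0. Probes detected at p under 0.01 on at least 3 arrays were kept, and each gene was read at its brightest kept probe, giving 8205 genes. The groups were compared with lmFit and eBayes (two-sided, 4 residual degrees of freedom before moderation), with Benjamini-Hochberg adjustment over all 8205 genes. Undetected groups give a bound ("at least N-fold"), against the higher of the probe's value and the lowest detected value on each array. The fit was tested on simulated data. The number of arrays limits the precision.

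The members and lists were chosen with earlier results of these data known. Array values are printed for members called at 1.5-fold or more, the eIF2 kinases and the Eif4ebp genes, and for some further members chosen after their values were seen. Up to 3 called genes per direction are named in each list of other translation genes, and Ppp1r15b and Mtor were added after their values were seen. The change at each further detected probe of a member is given as well. The alternatives were another scaling, background, filter, value table or probe rule, a replicate block, and leaving out each array.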

Additional observations from a re-analysis of the deposited data

How the results depend on the processing

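Of the 25 called Eif genes, 15 kept their call and direction under each of the alternatives that measured them, which were another scaling, background, filter, value table or probe rule, a replicate block and leaving out each array. Eif4e, 1 of the 15, was not measured in the alternative that required detection on all 6 arrays. The share of all called genes that kept their call was not counted, so the number is not particular to Eif genes. All 10 members called at 1.5-fold or more were among these 15, but with median centring, no background correction, an offset of 50 or the authors' normalized values 6 members and not 8 were up by that much, and with the offset 1 and not 2 were down, Eif2d being at -0.58. Leaving out 1 array at a time gave 6 to 9 up. Of the 40 genes, 6 changed sign with the mean of all kept probes, namely Eif3c (0.45), Eif3k (0.15), Eif4a2 (-0.41), Eif5a (-0.35), Eif4g2 (-0.14) and Eif4enif1 (-0.03), which follows from averaging probes of opposite sign. The eIF2 count moved from 8 to 5 with median centring, and the eIF3 count from 5 to 3 with no filter, under which 19057 genes were tested. Leaving out 1 array at a time gave 5 to 8 calls in the eIF2 group, 3 to 6 in the eIF3 group, 5 to 7 in the eIF4 group, 5 to 6 in the others and 20 to 25 over all Eif genes. Whether the number in the labels pairs the arrays cannot be decided with 3 arrays per group. Deviations of same-numbered arrays correlated at 0.02, 0.002 and 0.03, and the numbers matched best in 2 of 3 pairs. With the replicate block 25 Eif genes were called, as without it, and 5060 of all genes against 5031. Signal over background limits the 11 unmeasured members, of which 9 had no detected array at their brightest probe and the others 1.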
